A study of Mus musculus with 18 samples.

Results

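Ephb3, Trib2, Tsc22d1 and Kcnn4 are 4 of the 43629 genes counted by 3′ mRNA sequencing (QuantSeq) in AT3 cells, and were chosen by their counts, which fell when IFNγ was added, either alone or to cells that had received an inhibitor of P300/CBP. AT3 is a mouse mammary carcinoma cell line, established from a tumour of an MMTV-PyMT transgenic mouse, in which the mammary tumour virus promoter drives the transgene. All 18 libraries come from this 1 line. DMSO vehicle or an inhibitor, A-241 at 250 nM or A-485 at 1000 nM, was on the cells for 1 h, and IFNγ or its vehicle was added for another 2 h, which gives the 6 conditions DMSO, IFNγ, A-241, A-241+IFNγ, A-485 and A-485+IFNγ, with 3 libraries each. The sample labels give a dose for the inhibitors alone, and the study's methods give the same doses for the combinations. The methods speak of technical triplicates and the labels of biological ones, so n counts libraries, and p values measure the spread between these libraries, which may be technical.

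IFNγ signals through its receptor and the kinases JAK1 and JAK2 and raises many genes directly. P300 and CBP are acetyltransferases that mark active enhancers, and A-241 and A-485 both block their catalytic domain. The 4 genes belong to different families. Ephb3 is a receptor tyrosine kinase for membrane-bound ephrin-B ligands, which positions cells by contact. Trib2 is a Tribbles pseudokinase, a scaffold that brings the ubiquitin ligase COP1 to C/EBP transcription factors. Tsc22d1 is a leucine zipper protein of the TSC22 family, first found as a transcript stimulated by TGF-β. Kcnn4 is the intermediate-conductance calcium-activated potassium channel KCa3.1, which opens through bound calmodulin.

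All 4 genes are protein coding, and in GENCODE vM21 (GRCm38) none shares exon bases with another gene, so that by this annotation no read on their exons counts for a neighbour too. Ephb3 (ENSMUSG00000005958) lies on chromosome 16 from 21204755 to 21223305 on the plus strand. Trib2 (ENSMUSG00000020601) lies on chromosome 12 from 15791727 to 15816922 on the minus strand. Tsc22d1 (ENSMUSG00000022010) lies on chromosome 14 from 76414961 to 76507765 on the plus strand and has 16 annotated transcripts, which the counts do not tell apart. Kcnn4 (ENSMUSG00000054342) lies on chromosome 7 from 24370263 to 24386690 on the plus strand.

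The sequence before the start site of each gene is given because the 4 genes were chosen for falling with IFNγ, a cytokine with known promoter motifs. The sequences are those of RefSeq (GRCm38.p6), in the direction of transcription, from 250 bases before the start and without bases that GENCODE places inside the gene. Capitals mark a match to TTCNNNGAA, a palindrome of gamma-activated sites, to the core of an interferon-stimulated response element (GAAA, any 2 bases, GAAA), or to TATAAA, on either strand.
Ephb3, chr16:21204545-21204754, plus strand: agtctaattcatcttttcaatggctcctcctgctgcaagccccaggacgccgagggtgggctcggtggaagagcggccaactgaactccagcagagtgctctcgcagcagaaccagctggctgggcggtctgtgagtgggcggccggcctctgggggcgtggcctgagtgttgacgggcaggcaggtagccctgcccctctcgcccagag
Trib2, chr12:15816923-15817035, minus strand: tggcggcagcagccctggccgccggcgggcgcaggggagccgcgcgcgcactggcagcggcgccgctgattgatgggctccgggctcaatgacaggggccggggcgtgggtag
Tsc22d1, chr14:76414711-76414960, plus strand: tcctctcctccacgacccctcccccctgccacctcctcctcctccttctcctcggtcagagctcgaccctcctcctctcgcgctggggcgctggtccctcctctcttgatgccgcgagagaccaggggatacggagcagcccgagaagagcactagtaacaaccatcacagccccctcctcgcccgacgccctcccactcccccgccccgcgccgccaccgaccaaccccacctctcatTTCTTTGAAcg
Kcnn4, chr7:24370013-24370262, plus strand: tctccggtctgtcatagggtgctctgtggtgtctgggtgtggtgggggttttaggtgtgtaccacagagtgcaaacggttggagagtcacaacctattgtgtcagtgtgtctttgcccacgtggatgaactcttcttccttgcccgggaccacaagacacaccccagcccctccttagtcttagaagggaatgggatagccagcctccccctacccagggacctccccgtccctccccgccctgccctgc
In the 250 bases before these 4 starts there was 1 match, the letters TTCTTTGAA before the first start of Tsc22d1. TTCNNNGAA, which reads the same on both strands, is held by 7.02% of the 32851 windows of this length in the table, the response element core by 2.98% and TATAAA by 12.4%. RefSeq gives Tsc22d1 4 more starts, and among their windows 1 held TATAAA and none held the other motifs. The windows differed in CG dinucleotides, with 34 in Trib2, 19 in the first window of Tsc22d1, 16 in Ephb3 and 6 in Kcnn4, and a median of 6 over all windows. These matches describe letters only.

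Depth lay between 3417167 and 7856830 counts per library, and counts were expressed as CPM, relative to the TMM-scaled library size. The 4 genes had between 25 and 1311 counts in every library. DMSO replicate 3 and IFNγ replicate 2 stood apart, with 20.1% and 23.0% of their counts on Gm42418 against 7.11% to 16.2% in the other 16 libraries, and the fold changes of the 4 genes that rest on them are given with and without both. The IFNγ labels were borne out by Irf1, a transcription factor gene induced by interferons, at 11.4 to 23.3 CPM with DMSO and 408 to 819 CPM with IFNγ. Of 8 epithelial markers 7 were expressed and Krt19 had at most 1 count in any library. Of 6 leukocyte markers 3 passed the count filter and Adgre1 was at 0 throughout. Their sum was 2.68 to 19.3 CPM with DMSO, 5.41 to 34.2 with IFNγ and 12.9 to 39.6 with A-485. It was 3.22 to 19.1 CPM with A-485+IFNγ, 6.71 to 12.0 with A-241 and 3.26 to 29.2 with A-241+IFNγ. The epithelial sum was 1647 to 2015 CPM with DMSO, 1447 to 1691 with IFNγ, 1205 to 1306 with A-485, 1121 to 1273 with A-485+IFNγ, 1067 to 1106 with A-241 and 1050 to 1205 with A-241+IFNγ. The sum of 4 mesenchymal markers was 649.7 to 711 CPM with DMSO, 653 to 756 with IFNγ, 529 to 561 with A-485, 578 to 669 with A-485+IFNγ, 407 to 450.1 with A-241 and 434 to 507 with A-241+IFNγ. The epithelial and mesenchymal sums were thus lowest in conditions with A-241. The part of the marker sums in the results below was not tested. In bulk RNA, fewer cells that express a gene and less of its RNA per cell cannot be told apart.

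The fall with IFNγ is what chose the genes, so it is described here without a p value for them. That they are among the genes called lower, or that their libraries lie apart, is not independent of the choice. IFNγ alone lowered 12 of 11964 genes tested (0.1%) at an adjusted p under 0.01 (edgeR), and all 4 genes were among them. The other 8 were Slc43a2, Utp14b, Gm28730, Ddit4l, Shox2, Wnt7b, Pik3r3 and Timp3. Timp3, a secreted inhibitor of metalloproteinases, stood just inside the threshold with a log2 fold change of -0.62, and Nkd2, an inhibitor of Wnt signalling, just outside it with -0.81. When IFNγ was added to A-485, 7 genes were lower (0.0585%), with Kcnn4 and Trib2 among them, and with Erf, Timp3, Cebpb and Ankrd1 among the others. There Ankrd1 stood just inside the threshold with a log2 fold change of -1.27, and Jag1, a Notch ligand, just outside it with -2.21. When it was added to A-241, 0 genes (0%) were called lower by edgeR or limma-voom and 3 by DESeq2, with 181 below an unadjusted p of 0.05 (edgeR). The libraries with IFNγ all lay below those without it for 4 of the 4 genes in DMSO (3.69% of all genes tested), 4 in A-485 (8.5%) and 3 in A-241 (7.2%), where those of Tsc22d1 overlapped.

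**Figure D1:**
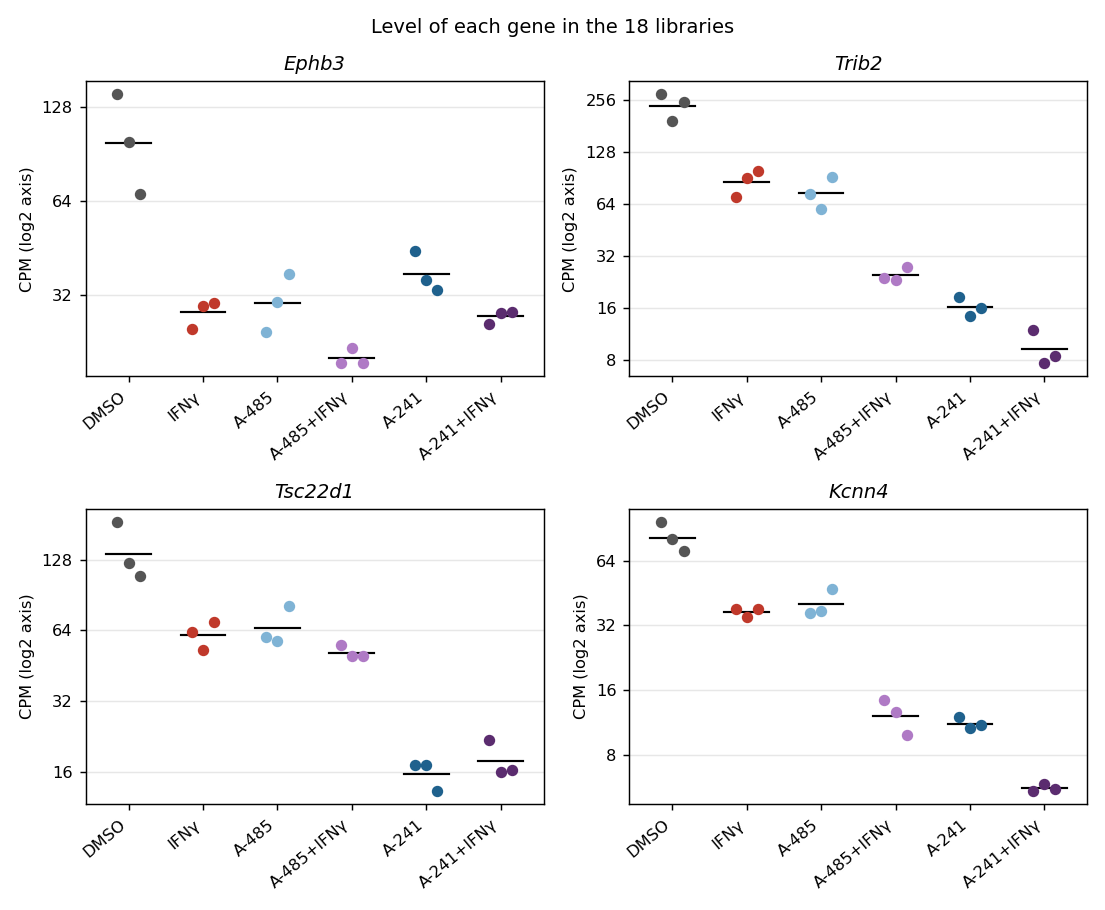
CPM on a log2 axis for each of the 4 genes in the 18 libraries, with 1 point per library and a bar at the geometric mean of each condition. DMSO is the highest condition for every gene; Ephb3 lies between 19.3 and 44.1 CPM in all others, while Trib2 and Kcnn4 are lowest in A-241+IFNγ.

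Ephb3 was high in DMSO and low in every other condition. It was at 141, 99.4 and 67.2 CPM in the 3 DMSO libraries. IFNγ alone gave 24.9, 29.4 and 30.2 CPM, A-241 gave 44.1, 35.6 and 33.0, and A-485 gave 24.3, 30.3 and 37.3. With both agents it was at 25.8, 28 and 28.2 CPM for A-241+IFNγ and 19.3, 21.5 and 19.3 for A-485+IFNγ. The DMSO libraries did not overlap with those of any other condition, and DMSO replicate 3, rich in Gm42418, was the lowest of the DMSO libraries. From the highest mean down, the order was DMSO, A-241, A-485, IFNγ, A-241+IFNγ and A-485+IFNγ, and from A-241 to A-241+IFNγ each condition overlapped with the next. The mean was 27.5% of DMSO with IFNγ and 36.6% with A-241.

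Trib2 went down stepwise over a wider range. DMSO gave 276, 193 and 248 CPM, and IFNγ gave 69.9, 91.0 and 99.1. A-485 alone was at a level like that of IFNγ, with 73.3, 59.8 and 92.0 CPM, and these 2 conditions overlapped. Adding IFNγ to A-485 left 23.9, 23.2 and 27.5 CPM. A-241 gave 18.5, 14.4 and 16 CPM, and A-241+IFNγ was lowest with 11.9, 7.65 and 8.44. Apart from IFNγ and A-485, no neighbours in this order overlapped. The mean of A-241+IFNγ was 3.91% of that of DMSO, from 41 to 55 counts per library.

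Tsc22d1 formed 3 levels. DMSO was highest at 185, 124 and 109 CPM. The middle level held A-485 with 59.7, 57.7 and 81.6 CPM, IFNγ with 63.2, 52.9 and 69.3, and A-485+IFNγ with 55.2, 49.8 and 49.7, each overlapping with its neighbour. A-485 and A-485+IFNγ, the ends of this level, did not overlap with each other. Both conditions with A-241 were low, at 17, 17 and 13.2 CPM without IFNγ and 21.7, 15.9 and 16.3 with it, and they overlapped. The mean was 11.3% of DMSO with A-241 and 12.9% with A-241+IFNγ, so the lowest condition was one without IFNγ.

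Kcnn4 showed steps like those of Trib2. DMSO gave 96.8, 80.3 and 70.7 CPM. A-485 with 36.5, 37.3 and 47.3 CPM and IFNγ with 38.0, 35.1 and 38.0 overlapped. A-485+IFNγ with 14.3, 12.6 and 9.86 CPM overlapped with A-241, at 12.0, 10.6 and 10.9. A-241+IFNγ was below all other conditions at 5.43, 5.86 and 5.56 CPM, from 25 to 36 counts, or 6.80% of the DMSO mean.

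A-241 lowered all 4 genes relative to DMSO, a comparison not used to choose them. A-241 lowered 3.53% of all genes tested at the same threshold, and its libraries lay wholly below those of DMSO for the 4 genes and for 13.4% of all genes. Trib2 fell by 3.87 on the log2 scale (standard error 0.23, adjusted p = 5.68e-08, edgeR), a 14.7-fold decrease that ranked 21 among the 422 genes lower. Tsc22d1 fell by 3.14 (standard error 0.23, adjusted p = 2.24e-07, edgeR) and Kcnn4 changed by -2.89 (standard error 0.18, adjusted p = 5.68e-08, edgeR). Ephb3 fell by 1.45 (standard error 0.22, adjusted p = 0.00056, edgeR), and was 258th among those genes. The DMSO libraries also served to choose the 4 genes, so these falls are not independent of the choice. Without DMSO replicate 3 and IFNγ replicate 2 the changes were -3.88 for Trib2, -3.33 for Tsc22d1, -3.02 for Kcnn4 and -1.71 for Ephb3. When only the 6 libraries compared were fitted, Ephb3 no longer passed the threshold (log2 fold change -1.51, adjusted p = 0.0395, edgeR).

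A-485 lowered 3 of the 4 genes, against 0.619% of all genes tested, and its libraries lay wholly below those of DMSO for 4 of the 4 and for 8.84% of all genes. The DMSO and A-485 libraries also served to choose the genes, so these falls are not independent of the choice. Ephb3 fell by 1.75 on the log2 scale (standard error 0.23, adjusted p = 0.000576, edgeR), Trib2 changed by -1.67 (standard error 0.21, adjusted p = 0.000419, edgeR) and Kcnn4 by -1.04 (standard error 0.16, adjusted p = 0.00265, edgeR). The change of Tsc22d1 was -1.07 (standard error 0.21), which missed the threshold (adjusted p = 0.0131, edgeR). It passed without DMSO replicate 3 (-1.21, adjusted p = 0.00545, edgeR), by DESeq2 (-1.09, adjusted p = 9.35e-05) and without DMSO replicate 3 and IFNγ replicate 2 (-1.25, adjusted p = 0.000188, edgeR). Without these 2 libraries the changes of the other genes were -2.01 for Ephb3, -1.68 for Trib2 and -1.17 for Kcnn4. Kcnn4 lost its call without DMSO replicate 1 (adjusted p = 0.016, edgeR), A-485 replicate 1 (adjusted p = 0.0298, edgeR) or A-485 replicate 2 (adjusted p = 0.0179, edgeR), and with total counts in place of TMM factors (adjusted p = 0.0173, edgeR). With the 6 libraries fitted alone 0 of the 4 genes passed, with adjusted p between 0.0932 and 0.265.

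Compared directly, at doses that differ, A-241 left 3 of the 4 genes lower than A-485 did, against 0.351% of all genes tested. The A-241 and A-485 libraries were also among those on which the genes were chosen, through the response to IFNγ in each inhibitor. Trib2 fell by 2.20 on the log2 scale (standard error 0.22, adjusted p = 4.37e-05, edgeR), Tsc22d1 changed by -2.07 (standard error 0.22, adjusted p = 6.67e-05, edgeR) and Kcnn4 by -1.85 (standard error 0.17, adjusted p = 2.19e-05, edgeR). These 3 calls held under all 15 alternatives tried. Ephb3 had a difference of 0.30 in the other direction, with a 95% interval from -0.18 to 0.77 (adjusted p = 0.904, edgeR).

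**Figure D2:**
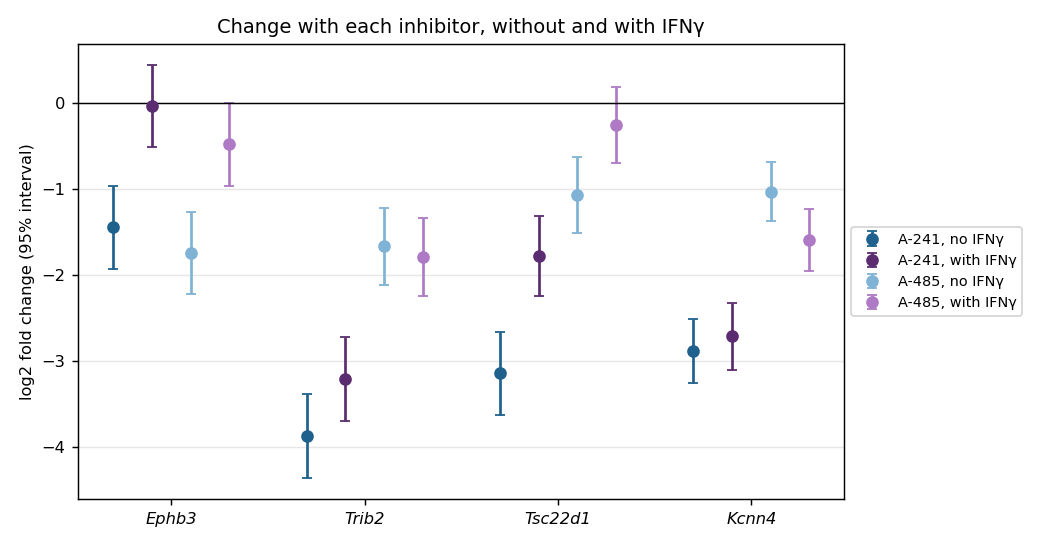
Log2 fold change of each gene with A-241 or A-485, relative to DMSO without IFNγ and relative to IFNγ alone with it; points are edgeR estimates and bars 95% intervals. Trib2, Tsc22d1 and Kcnn4 are lower with A-241 both without and with IFNγ, whereas the change of Ephb3 with A-241 is -1.45 without IFNγ and -0.04 with it.

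In the presence of IFNγ the inhibitors were compared with IFNγ alone. A-241+IFNγ was lower than IFNγ alone for 3 of them, against 3.54% of all genes tested. Trib2 fell by 3.22 on the log2 scale (standard error 0.23, adjusted p = 3.25e-07, edgeR), Kcnn4 changed by -2.72 (standard error 0.18, adjusted p = 1.68e-07, edgeR) and Tsc22d1 by -1.78 (standard error 0.22, adjusted p = 5.90e-05, edgeR). All 3 calls held in every alternative, and without both libraries rich in Gm42418 the changes were -3.19, -2.76 and -1.89. Ephb3 had a change of -0.04, with a 95% interval from -0.52 to 0.44 (adjusted p = 0.951, edgeR), so that a further fall of more than 0.52 lay outside the interval. The IFNγ and A-241+IFNγ libraries were among those that chose the genes, so these calls are not independent of the choice.

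A-485+IFNγ was lower than IFNγ alone for Trib2 and Kcnn4, against 0.535% of all genes tested. The libraries of both conditions also served to choose the genes, so these calls are not independent of the choice. Trib2 fell by 1.80 on the log2 scale (standard error 0.21, adjusted p = 0.000421, edgeR) and Kcnn4 changed by -1.60 (standard error 0.17, adjusted p = 0.000199, edgeR). Tsc22d1 changed by -0.26, with a 95% interval from -0.70 to 0.18 (adjusted p = 0.576, edgeR), and Ephb3 by -0.49, with an interval from -0.97 to -0.00156 (adjusted p = 0.338, edgeR). Without DMSO replicate 3 and IFNγ replicate 2 the changes were -1.77 for Trib2, -1.64 for Kcnn4, -0.37 for Tsc22d1 and -0.46 for Ephb3. Fitted on the 6 libraries alone, neither Trib2 (adjusted p = 0.0684, edgeR) nor Kcnn4 (adjusted p = 0.0874, edgeR) passed the threshold.

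Between the combinations, the log2 change of A-241+IFNγ relative to A-485+IFNγ was -1.52 for Tsc22d1 (standard error 0.22, adjusted p = 0.00133, edgeR), -1.42 for Trib2 (standard error 0.22, adjusted p = 0.00274, edgeR) and -1.12 for Kcnn4 (standard error 0.18, adjusted p = 0.00362, edgeR), against 0.51% of all genes tested. Ephb3 differed by 0.45 in the other direction, with a 95% interval from -0.04 to 0.93 (adjusted p = 0.861, edgeR). The libraries of the combinations also served to choose the genes. Over the 15 alternatives the change lay between -1.68 and -1.44 for Tsc22d1, -1.63 and -1.28 for Trib2 and -1.25 and -0.99 for Kcnn4, while the calls were lost in some of them. Without A-241+IFNγ replicate 2 the adjusted p was 0.0175 for Tsc22d1, 0.0311 for Trib2 and 0.0262 for Kcnn4 (edgeR), and without A-241+IFNγ replicate 3 it was 0.0136, 0.0225 and 0.0298 (edgeR). Trib2 also lost its call without A-485+IFNγ replicate 1 (adjusted p = 0.0116, edgeR) or replicate 3 (adjusted p = 0.0145, edgeR). Kcnn4 lost its call without A-241+IFNγ replicate 1 (adjusted p = 0.0305, edgeR), A-485+IFNγ replicate 1 (adjusted p = 0.0322, edgeR) or A-485+IFNγ replicate 2 (adjusted p = 0.0193, edgeR), and by limma-voom (adjusted p = 0.0158), without a filter on low counts (adjusted p = 0.0166, edgeR), with total counts (adjusted p = 0.0266, edgeR) and with the 6 libraries alone (adjusted p = 0.0136, edgeR).

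Seen from the side of IFNγ, the responses had different values in DMSO and in each inhibitor. These contrasts chose the genes and are given without a test. Ephb3 had a log2 fold change with IFNγ of -1.87 (standard error 0.23) in DMSO, -0.61 (0.23) in A-485 and -0.46 (0.23) in A-241. The response of Tsc22d1 was -1.17 (0.21) in DMSO, -0.36 (0.21) in A-485 and 0.19 (0.22) in A-241, so in A-241 its mean no longer lay below that without IFNγ. Kcnn4 had values of -1.16 (0.16) in DMSO, -1.72 (0.17) in A-485 and -0.99 (0.19) in A-241. For Trib2 the response was -1.46 (0.21) in DMSO, -1.59 (0.21) in A-485 and -0.81 (0.23) in A-241. Without DMSO replicate 3 and IFNγ replicate 2 the values in DMSO were -2.14 for Ephb3, -1.23 for Tsc22d1, -1.23 for Kcnn4 and -1.49 for Trib2.

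**Figure D3:**
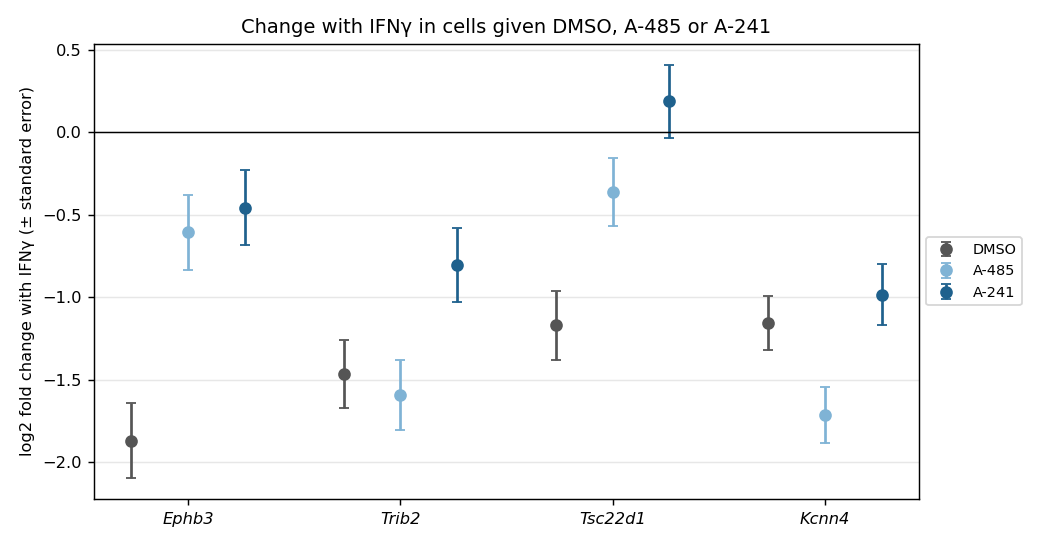
Log2 fold change with IFNγ for each gene in cells given DMSO, A-485 or A-241; points are edgeR estimates and bars ± 1 standard error. The DMSO estimates run from -1.87 to -1.16, and in A-241 they run from -0.99 for Kcnn4 to 0.19 for Tsc22d1.

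Over the 18 libraries Trib2 and Kcnn4 had a Pearson's r of 0.98 in log2 CPM. Of the 9787 genes with a symbol and a mean of at least 20 counts, each was the most like the other. Next to Trib2 stood Id2 (0.98), an inhibitor of helix-loop-helix factors, and Trim47 (0.97), and next to Kcnn4 stood Arl4c (0.96) and Trib1 (0.96). Tsc22d1 was most like Nkd2 (0.98), Tns4 (0.96) and Arl4c (0.94). Ephb3 had no gene as close, and the nearest were Rbpj (0.86), the DNA-binding factor of the Notch pathway, Utp14b (0.84) and Raph1 (0.82). These values describe libraries that share 6 conditions. With the condition means taken out, r between Trib2 and Kcnn4 was 0.16, the lowest among the 4 genes, and that between Ephb3 and Kcnn4 was 0.68, the highest. For Tsc22d1 it was 0.66 with Ephb3, 0.65 with Kcnn4 and 0.57 with Trib2, and between Ephb3 and Trib2 it was 0.30. DMSO replicate 3 and IFNγ replicate 2 are included in these values.

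The families and partners of the 4 genes were read from lists. Of 46 related genes tested, 0 were lower with IFNγ than with DMSO and 1 was higher, beside 0.1% and 1.2% of all genes tested (edgeR). Below an unadjusted p of 0.05 lay 447 of all genes tested in the lower direction. At so low a share over all genes, a count of 0 among 46 says nothing particular about these genes, and Foxo3, for example, had a log2 change of -0.64 (adjusted p = 0.0821, edgeR). With A-241 relative to DMSO 5 of the 46 were lower, beside 3.53% of all genes tested, and with A-485 1 was lower, beside 0.619%. In the presence of IFNγ 5 were lower with A-241, beside 3.54%, and 2 with A-485, beside 0.535%.

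Of the other Tribbles genes, Trib3 was called higher with IFNγ and Trib1 was not called, while Trib2 had been chosen for its fall. Trib3, a Tribbles pseudokinase of the stress response, was the related gene higher with IFNγ. It went from 92.3, 72.8 and 57.2 CPM with DMSO to 146, 142 and 194 with IFNγ (a log2 change of 1.11 with a standard error of 0.21, adjusted p = 0.00576, edgeR). The call was lost without DMSO replicate 2 (adjusted p = 0.0313, edgeR), DMSO replicate 3 (adjusted p = 0.0182, edgeR), IFNγ replicate 1 (adjusted p = 0.0126, edgeR) or IFNγ replicate 3 (adjusted p = 0.0449, edgeR). It was also lost with total counts, with the replicate number as a block and with the 6 libraries alone, and 8 of 15 alternatives kept it. In A-485 IFNγ raised Trib3 by 1.47 beside 0.744% of all genes raised (adjusted p = 0.000721, edgeR), without a call when A-485 replicate 1 was left out (adjusted p = 0.0105, edgeR). In A-241 the log2 change of Trib3 with IFNγ was 0.81, which did not pass the test (adjusted p = 0.243, edgeR). Trib1, which like Trib2 recruits COP1, was at 154, 110 and 82.4 CPM with DMSO and 78.2, 60.3 and 83.4 with IFNγ, a log2 fold change of -0.64 that did not pass the test (adjusted p = 0.219, edgeR). A-241 lowered Trib1 by -1.81 (adjusted p = 5.08e-05, edgeR) and Trib3 by -1.59 (adjusted p = 0.000163, edgeR) on the log2 scale relative to DMSO, and by -1.96 and -1.89 relative to IFNγ alone (adjusted p = 2.74e-05 and 2.81e-05, edgeR). Trib3 was also lower with A-241+IFNγ than with A-485+IFNγ (-1.77, adjusted p = 0.000347, edgeR), in all 15 alternatives. Fitted on the 6 libraries alone, Trib1 and Trib3 missed the threshold against DMSO (adjusted p = 0.0148 and 0.0177, edgeR), as did Cebpb, Efnb1 and Epha7 (adjusted p = 0.025, 0.0193 and 0.059, edgeR).

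Cebpb, a C/EBP factor of the kind that Tribbles proteins bind, had a log2 fold change of 0.21 with IFNγ (adjusted p = 0.886, edgeR). Added to A-485, IFNγ took it from 55.7, 57.3 and 57.3 CPM to 26.7, 24.8 and 29.2 (log2 fold change -1.08, adjusted p = 0.0065, edgeR). This call did not hold with any 1 of the 6 libraries left out (A-485 replicates 1 to 3 and A-485+IFNγ replicates 1 to 3, adjusted p between 0.0296 and 0.0602, edgeR), although the change stayed between -1.14 and -1.02. It held with the 6 libraries fitted alone (adjusted p = 7.4e-05, edgeR), by DESeq2 (adjusted p = 4.9e-05) and without DMSO replicate 3 and IFNγ replicate 2 (adjusted p = 8.8e-06, edgeR). It was lost without a filter on low counts (adjusted p = 0.0152, edgeR) and with at least 10 counts in every library (adjusted p = 0.0132, edgeR). Total counts (adjusted p = 0.0611, edgeR) and the replicate number as a block (adjusted p = 0.0178, edgeR) also lost it. Of 15 alternatives 5 kept the call. Cebpb was lower with A-241 than with DMSO (log2 fold change -1.28, adjusted p = 0.00049, edgeR) and lower with A-241+IFNγ than with IFNγ (-2.33, adjusted p = 2.05e-06, edgeR). It was also lower with A-485+IFNγ than with IFNγ (-1.55, adjusted p = 0.00057, edgeR), a call lost with total counts (adjusted p = 0.0115, edgeR) and with the 6 libraries alone (adjusted p = 0.127, edgeR).

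**Figure D4:**
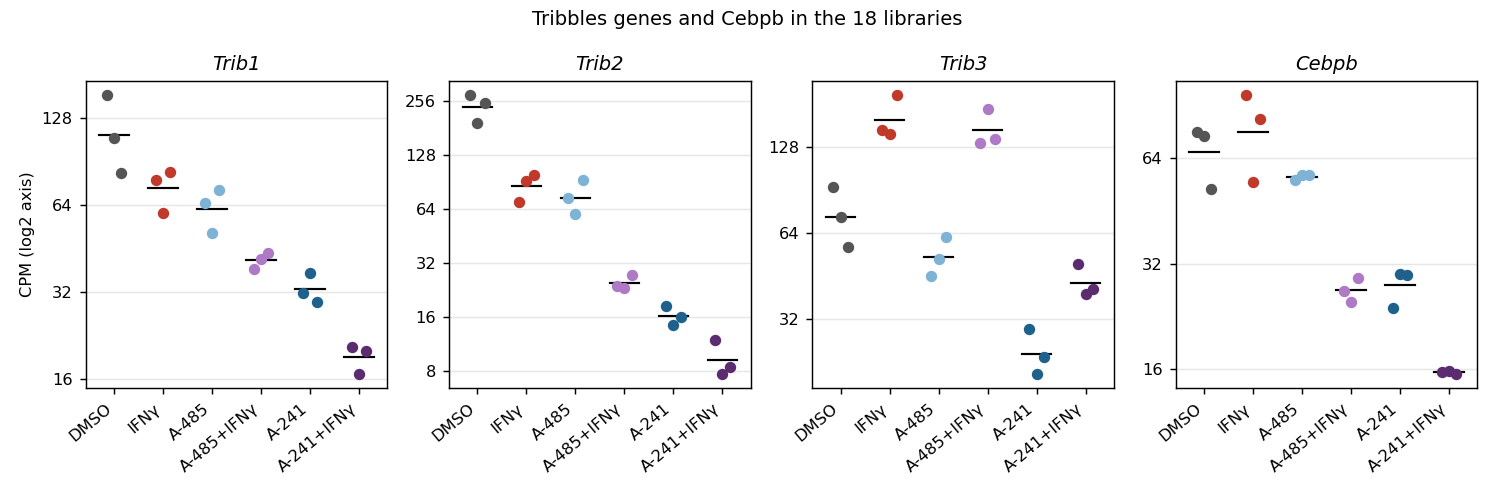
CPM on a log2 axis for Trib1, Trib2, Trib3 and Cebpb in the 18 libraries, with 1 point per library and a bar at the geometric mean. Trib3 is higher with IFNγ than without it in DMSO, in A-485 and in A-241, while Trib2 is lower in each.

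Of 21 other Eph receptors and ephrins 13 were tested. Efnb1, a ligand of EphB receptors, was lower with A-241 (log2 fold change -1.16, adjusted p = 0.000952, edgeR) and with A-485 (-1.20, adjusted p = 0.00312, edgeR). That with A-485 did not stand without DMSO replicate 1 (adjusted p = 0.0149, edgeR), A-485 replicate 1 (adjusted p = 0.0306, edgeR) or A-485 replicate 2 (adjusted p = 0.0179, edgeR). It was also lost with the 6 libraries alone (adjusted p = 0.127, edgeR) and, narrowly, with the replicate number as a block (adjusted p = 0.01001, edgeR). With IFNγ Efnb1 was at 19.7, 28.8 and 23.4 CPM against 41.2, 33.6 and 42.1 with DMSO, a log2 fold change of -0.71 that did not pass the test (adjusted p = 0.0886, edgeR). Epha7 was lower with A-241 both without IFNγ (log2 fold change -1.38, adjusted p = 0.00322, edgeR) and with it (-1.46, adjusted p = 0.00221, edgeR). The first call was lost without DMSO replicate 3 (adjusted p = 0.0142, edgeR) or A-241 replicate 1, 2 or 3 (adjusted p = 0.0228, 0.0129 and 0.0149, edgeR), and the second without A-241+IFNγ replicate 1 (adjusted p = 0.0144, edgeR). The second was also lost with the 6 libraries alone (adjusted p = 0.0650, edgeR).

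The TSC22 and potassium channel lists are short, and their counts are read against the same shares over all genes. Of 12 other genes of the TSC22 list, all tested, 0 passed the threshold with IFNγ, with A-241 or with A-485 relative to DMSO. Under IFNγ Smad3, a mediator of TGF-β signals, was lower with A-241 (log2 fold change -2.0, adjusted p = 0.00659, edgeR) and Smad7, an inhibitor of that pathway, with A-485 (-1.45, adjusted p = 0.00675, edgeR). Smad3 lay near the floor with A-241+IFNγ, at 0.65, 1.63 and 0.62 CPM against 4.41, 4.16 and 3.66 with IFNγ. Each of these calls was lost with any of 5 of the 6 libraries left out. For Smad3 these were IFNγ replicates 1 to 3 and A-241+IFNγ replicates 1 and 3 (adjusted p between 0.0112 and 0.0413, edgeR), and for Smad7 they were IFNγ replicates 2 and 3 and A-485+IFNγ replicates 1 to 3 (adjusted p between 0.0115 and 0.0439, edgeR). Among all alternatives, 6 of 14 kept the call of Smad3 and 5 of 15 that of Smad7. Of 15 other calcium-activated potassium channels and their regulators 10 were tested, and 0 passed in any of the 9 comparisons. Kcnn1, Kcnn2, Kcnn3 and Kcnma1, the other potassium channels of the list, had too few counts to be tested, so that Kcnn4 was the only potassium channel of the list that could be.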

How the data were processed

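AT3 cells were profiled by QuantSeq 3′ mRNA sequencing in 18 libraries. The authors deposited raw counts, made by trimming reads with cutadapt 1.7, aligning to GRCm38 with HISAT2 2.1.0 and counting on exons with featureCounts, with a read over several genes counted for each and no strand option. The release of their annotation is not given in the sources used here. Of 43629 identifiers 42462 were matched to a symbol of GENCODE vM21.

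Samples were grouped by their titles. Genes were kept by filterByExpr, libraries were scaled by TMM factors, and the 6 condition means were estimated jointly over the 18 libraries by quasi-likelihood in edgeR 4.0.16 (R 4.3.3), with Benjamini-Hochberg adjustment over 11964 genes. The threshold for a call was an adjusted p of 0.01. Each test is two-sided. Log2 CPM used a prior count of 2, and intervals are 95%. limma-voom (limma 3.58.1) and DESeq2 1.42.0 were alternatives, with other filters, scalings and left-out libraries. The method was run on simulated counts without libraries that stand apart. They cannot show how it fares with DMSO replicate 3 and IFNγ replicate 2. Counts lack molecular identifiers.

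The 4 genes, the related lists and the tests were chosen with earlier results of these data known. Named besides the 4 genes are the genes called lower with IFNγ and those next to the threshold, related genes that were called, the 3 genes most correlated with each, and Irf1. Socs1 and Cxcl10 belonged to the same check, and Cxcl10 rose with IFNγ by a log2 fold change of 7.48. Socs1 rose unevenly, by 6.51 (standard error 1.09). It was at 0 to 0.63 CPM with DMSO and 1.19 to 62.7 CPM with IFNγ, so that its lowest IFNγ library was near the floor. Some genes that these rules name are not reported here. Of the markers, 3 of 4 mesenchymal, 3 of 6 leukocyte, 1 of 2 endothelial and 0 of 2 erythroid genes passed the count filter.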

Additional observations from a re-analysis of the deposited data

How the results depend on the processing

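None of the tested changes of the 4 genes was called in 1 direction and then in the other. With only the 6 libraries compared in the fit, 0 of the 4 genes were called with A-485 relative to DMSO (3 in the fit of all libraries) and 0 with A-485+IFNγ relative to IFNγ (2 in the fit of all libraries); the spread is then estimated from fewer samples. In the comparison of the combinations the number called lay between 0 and 2 with 1 library left out, against 3 with all. Of the related genes, 0 in place of 1 were called with IFNγ by total counts, with the replicate number as a block and with the 6 libraries alone, and 0 to 1 with 1 library left out; the cause was not tested. Same-numbered libraries did not deviate together (r over 0.1 in 15 of 45 pairs, and a library was most like its own number in 32 of 90 cases). In the 6 comparisons of inhibitors the block left each call of the 4 genes in place. Whether they stayed called with IFNγ, which chose them, was not recorded, and the block moved the genes lower with IFNγ from 12 to 6. Over all genes, DESeq2 gave 31 lower with IFNγ, 634 with A-241 in place of 422, 232 with A-485 in place of 74, 109 in place of 42 for A-241 against A-485, 211 in place of 64 for A-485 under IFNγ, 108 in place of 61 for the combinations and 15 in place of 7 for IFNγ in A-485; the block gave 29 in place of 64 for A-485 under IFNγ and 28 in place of 42 for A-241 against A-485. Total counts moved the median of all genes from 0.01 to 0.12 for A-241 against DMSO and from -0.02 to 0.13 under IFNγ, where the share of calls that were lower went from 86.7% to 75.4%.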
